A study of Ambystoma mexicanum with 17 samples.

Results

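The genes described here are those of the bone morphogenetic protein (BMP) and transforming growth factor beta (TGF-beta) pathways in axolotl forelimb tissue. They were taken by name from the gene identifiers in the count files: numbered BMP, GDF, TGFB and inhibin beta ligands, BMP, activin and TGF-beta receptors, SMAD proteins, ID proteins, and secreted inhibitors such as CHRD, NOG, FST and GREM1, with INHA. The rule found 51 of the 122775 gene IDs, and all 51 names were also found in a RefSeq gene table of the axolotl. Of these, 42 had enough reads to be tested. BMP4 and ID1 were not found under those names and are not analysed here.

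RNA came from white (d/d) axolotls. Accessory blastemas, buds of proliferating cells like those from which a lost limb regenerates, were raised on the forelimb by rerouting a nerve to a wound. They were collected at 10 days after injury together with the epithelium that covers the wound, so each library mixes mesenchyme, epidermis and other cells. The 17 libraries formed 4 groups: posterior blastemas with 25 uM U0126 (n = 5), posterior blastemas (n = 4), anterior blastemas (n = 5) and uninjured forelimb tissue (n = 3). U0126 inhibits the kinases that activate ERK. Besides the inhibitor, the labels mention DMSO and Holtfreter's solution, and which of these the posterior blastemas without U0126 received is unclear. Nothing states that each library of a group is a different animal, so the p-values cover only the spread among these libraries, which may be technical.

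As background, ligands of this family bind pairs of type I and type II receptor kinases. BMP ligands and some GDF ligands, such as GDF5, pass the signal to SMAD1, SMAD5 and SMAD9, whereas TGF-beta ligands, activins and other GDF ligands, such as GDF11, use SMAD2 and SMAD3, and both branches share SMAD4. SMAD6 and SMAD7 are inhibitory SMADs that the pathways switch on as negative feedback, the ID genes are direct BMP targets, and antagonists such as gremlin (GREM1) hold ligands away from their receptors. In limbs the family takes part in patterning, cartilage formation and cell death, and blocking TGF-beta receptors stops axolotl limb regeneration.

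Libraries held 34181446 to 53856865 reads counted in genes, and 19398 genes were tested. Mesenchyme and epidermis markers were present in every library, and no marker in 8 cell type lists was at 0 throughout. The libraries labelled uninjured replicate 1 and U0126 replicate 5 stood apart from their groups. For the tested pathway genes, uninjured replicate 1 lay inside the range of the 9 blastemas without U0126 in 34 of 42 genes, against 25 and 23 of 42 for the other uninjured libraries. U0126 replicate 5 was the highest of its group in 13 of 42 genes and the lowest in 14, against 3 to 15 and 3 to 11 for the other U0126 libraries. Posterior replicate 4 was the highest of its group in 11 and the lowest in 21, so such counts alone do not set a library apart. Over all genes, U0126 replicate 5 differed from the other U0126 libraries by a chi-square of 290 to 373 per degree of freedom, against 121 to 206 among those. Results that rest on these libraries are given with and without them, a choice made after the data were seen.

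Levels are in CPM, reads per 1000000 of the scaled library total, and are compared between libraries but not between genes, since gene lengths were not used. The core signal transducers were among the steadiest members. From the lowest to the highest of 17 libraries, SMAD9 varied 1.26-fold, SMAD4 1.29-fold, SMAD2 1.30-fold, SMAD1 1.65-fold, SMAD5 1.82-fold and SMAD3 1.83-fold. The inhibitory SMADs varied more, SMAD7 5.93-fold and SMAD6 7.77-fold. Among antagonists the span was 98.7-fold for GREM1 and 10.3-fold for FST, which binds activins. Among ligands it was 7.38-fold for TGFB1, 69.1-fold for INHBA, the subunit of activin A, and 259-fold for GDF11. The span of GDF11 starts from 0.0234 CPM, and a span from a level so near 0 rests on few reads. The type I receptor ACVR1 spanned 1.36-fold and the co-receptor TGFBR3 6.94-fold.

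The 9 members that were not tested had few or no reads. BMP10, GDF1 and INHA had 0 reads in all libraries, GDF2 had 2 and BMP15 had 4 reads in total. GDF9 had 37 reads, GDF15 43, GDF6 59 and the type I receptor ACVR1C 76. Of the 42 tested members, 41 are shown in the plot of levels by library.

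**Figure D1:**
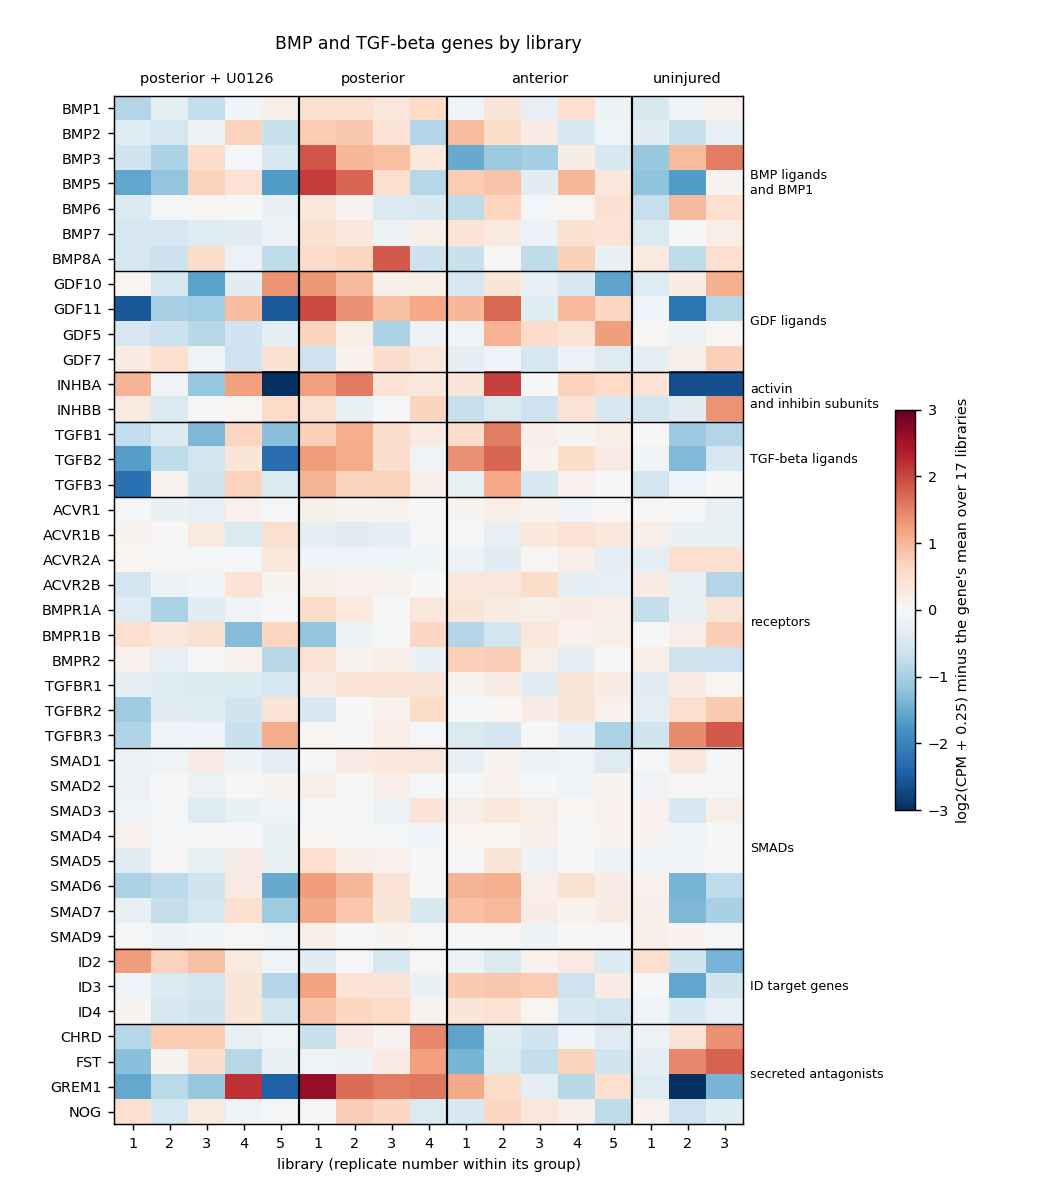
Levels of 41 tested genes in each of 17 libraries, as log2(CPM + 0.25) minus the mean of the gene over the libraries; rows are grouped by role, columns by group, and colours stop at −3 and 3. Rows of SMAD1, SMAD2, SMAD3, SMAD4, SMAD5 and SMAD9 are almost without colour, whereas GREM1, SMAD6, SMAD7, the TGF-beta ligands and INHBA change from library to library.

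Posterior blastemas with U0126 were set against those without it to ask how blocking ERK activation bears on the pathway. With U0126, 4 of 42 tested members fell and none rose: the receptor TGFBR1, the protease BMP1, the ligand BMP7 and the inhibitory SMAD6 (edgeR's quasi-likelihood test, adjusted p under 0.05). Over all genes tested, 8.12% passed that threshold and 3.99% passed it as lower, so the members' count is near the share for both directions together and above that for lower genes. DESeq2 called 8 members, where 15.3% of all genes passed. Among all genes 802 were higher and 774 lower, a split that became 440 higher and 736 lower when libraries were scaled by total counts. The mean was lower with U0126 in 36 of 42 members, with a median log2 fold change of −0.52 against −0.0022 over all genes tested. At an unadjusted p under 0.05 there were 15 members, 14 of them lower, where 24.9% of all genes passed. Of 19398 genes, 2400 passed so as lower and 2432 as higher. As these are bulk tissues, fewer cells of a type and less RNA per cell cannot be told apart.

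TGFBR1 encodes the type I receptor of the TGF-beta ligands. It was at 36.8, 33.7, 33.5, 33.3 and 30.6 CPM in posterior blastemas with U0126, against 51.3, 59.9, 58.6 and 57.2 CPM in posterior blastemas. Every U0126 library lay below every posterior library, and the libraries of each group lay close together. TGFBR1 fell by 0.76 ± 0.13 (SE) on the log2 scale, with an adjusted p of 0.0113. Anterior blastemas ranged from 35.4 to 56.9 CPM and uninjured tissue from 35.1 to 52.1 CPM.

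BMP1, despite its name, is a secreted metalloprotease that processes procollagen and cleaves chordin. It was at 23, 34.7, 25.3, 39.995 and 47.4 CPM with U0126, against 59.2, 59.2, 53.2 and 63.8 CPM in posterior blastemas. The groups did not overlap, though the U0126 libraries were spread widely. The log2 fold change was −0.79 ± 0.21 (SE), adjusted p = 0.0360.

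BMP7, a ligand that acts through SMAD1, SMAD5 and SMAD9, was at 14.8, 14.8, 16.2, 16.8 and 18.9 CPM with U0126, against 29.2, 26.5, 19 and 23.9 CPM in posterior blastemas. The groups were separate, with the highest U0126 library just under the lowest posterior library. BMP7 changed by −0.59 ± 0.16 (SE) on the log2 scale, adjusted p = 0.0361.

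SMAD6 blocks BMP receptor signalling inside the cell. It was at 2.32, 2.66, 3.02, 5.69 and 1.49 CPM with U0126, against 11.6, 9.71, 6.24 and 4.84 CPM in posterior blastemas. The groups overlapped, because U0126 replicate 4 lay above posterior replicate 4. Its log2 fold change was −1.41 ± 0.40 (SE), adjusted p = 0.0426.

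Without overlap between the groups were 5 of 42 members, where 12.3% of all genes had no overlap. Beside TGFBR1, BMP1 and BMP7 these were BMPR1A, lower with U0126, and ACVR2A, a type II activin receptor, higher with U0126. BMPR1A, a type I BMP receptor, was at 5.11, 3.37, 5.38, 6.25 and 6.66 CPM with U0126, against 9.96, 8.30, 6.85 and 8.63 CPM in posterior blastemas. Its log2 fold change of −0.66 ± 0.22 (SE) did not pass (adjusted p = 0.0716). ACVR2A was at 67.5, 65.2, 61.7, 62.4 and 81.1 CPM with U0126, against 59.7, 59.5, 58.3 and 60.9 CPM in posterior blastemas, a log2 fold change of 0.18 ± 0.15 (SE) with an adjusted p of 0.507.

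The 3 TGF-beta ligands all had lower means with U0126, and none passed the test. TGFB1 was at 32.4, 40.5, 21.3, 84.8 and 22.8 CPM with U0126, against 90.1, 117, 79.3 and 65.0 CPM in posterior blastemas. TGFB2 was at 3.04, 5.82, 6.81, 13.0 and 1.88 CPM with U0126, against 24.4, 22.1, 14.7 and 9.31 CPM in posterior blastemas. For both ligands U0126 replicate 4 was the highest of its group and the library that reached into the posterior range. The log2 fold changes were −1.12 ± 0.41 (SE, adjusted p = 0.101) for TGFB1 and −1.53 ± 0.51 (SE, adjusted p = 0.0728) for TGFB2.

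The ID genes, which encode inhibitors of helix-loop-helix transcription factors, went in both directions. ID4 was at 15.7, 10.4, 9.57, 19.1 and 10.1 CPM with U0126, against 26.8, 23.2, 22.3 and 16 CPM in posterior blastemas. Its log2 fold change was −0.77 ± 0.25 (SE), adjusted p = 0.0673. ID2 had the opposite sign, at 109, 73.2, 83.8, 54.4 and 42.1 CPM with U0126, against 35.9, 44.4, 32.9 and 46.6 CPM in posterior blastemas. The ID2 groups overlapped through U0126 replicate 5 alone, and its log2 fold change of 0.86 ± 0.33 (SE) did not pass (adjusted p = 0.115). ID3 averaged 32.3 ± 11.2 CPM (SD, n = 5) with U0126 and 56.3 ± 23.9 CPM (SD, n = 4) in posterior blastemas, adjusted p = 0.184.

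In GREM1 and the ligand GDF11, U0126 replicate 4 was far above the other U0126 libraries. GREM1 was at 1.26, 2.23, 1.74, 19.5 and 0.566 CPM with U0126, against 26.8, 13.6, 12.3 and 12.8 CPM in posterior blastemas. GDF11 was at 0.0234, 0.548, 0.521, 2.79 and 0.0257 CPM with U0126, against 6.06, 3.89, 2.67 and 3.31 CPM in posterior blastemas. In both genes 4 of the 5 U0126 libraries lay under all posterior libraries. The log2 fold changes were −1.69 ± 0.86 (SE, adjusted p = 0.240) for GREM1 and −2.35 ± 0.95 (SE, adjusted p = 0.136) for GDF11. Without U0126 replicate 4 they were −3.49 ± 0.65 (SE, adjusted p = 0.00558) for GREM1 and −3.80 ± 0.90 (SE, adjusted p = 0.0161) for GDF11. That library was singled out after these values were seen, so the larger differences are no separate support.

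U0126 replicate 4 lay inside the range of the posterior libraries in 25 of 42 members, against 12 to 16 of 42 for the other U0126 libraries. It also held 51 reads of SHH, the ligand that marks posterior limb cells, where the other U0126 libraries held 0 to 8. Without it, 9 members were lower at an adjusted p under 0.05: GREM1, TGFBR1, SMAD6, TGFB1, GDF11, TGFB2, ID4, BMP1 and BMP7. Over all genes 12.3% passed and 6.75% passed as lower. U0126 replicate 4 was singled out by the values of these same members. Leaving it out can by itself widen their differences, so these calls are no separate support. Leaving out both libraries that stood apart gave 7 members, where 13% of all genes passed. These were TGFBR1, BMP1, BMP7, SMAD6, BMPR1A and the type II receptor TGFBR2 (log2 fold change −0.67, adjusted p = 0.0475), all lower, and ID2, which was higher (0.99, adjusted p = 0.0189). Of the libraries left out, uninjured replicate 1 is in neither group compared here. With U0126 replicate 5 alone left out, TGFBR1, BMP1 and BMP7 passed, and SMAD6, BMPR1A, TGFBR2 and ID2 did not.

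**Figure D2:**
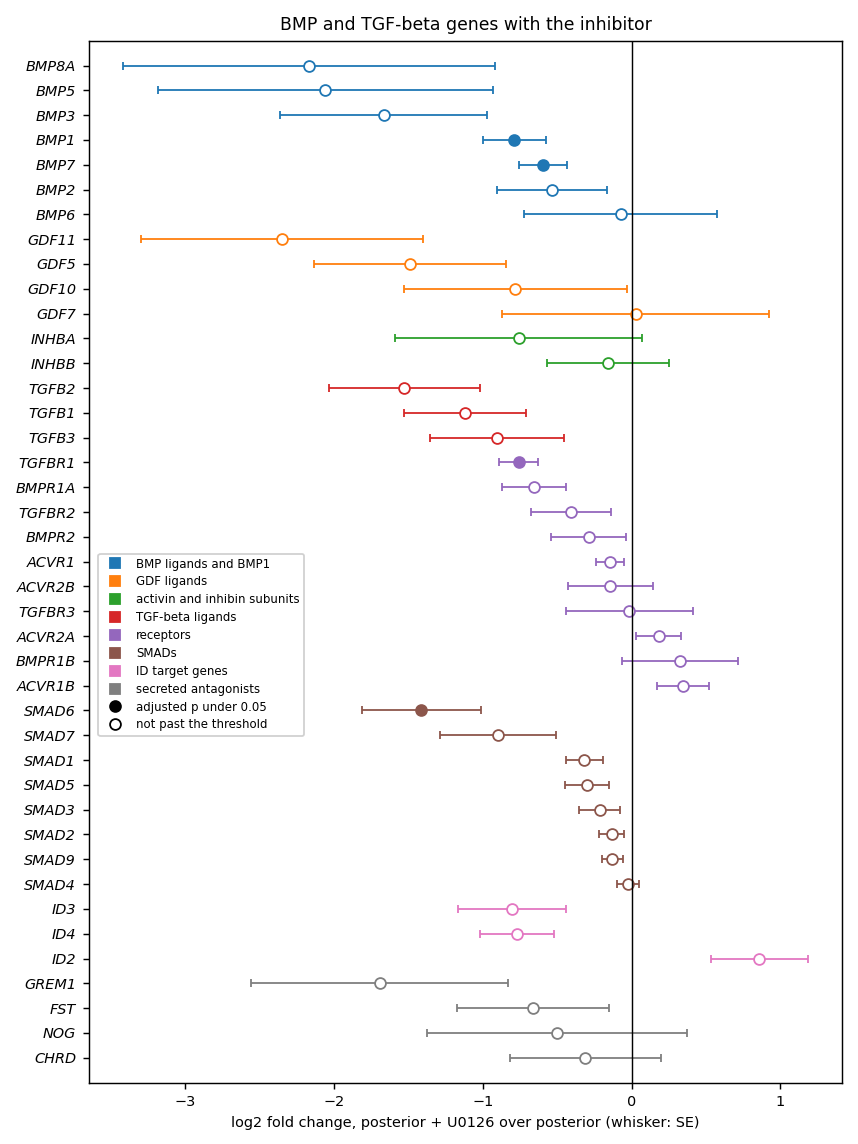
Log2 fold change of 41 tested genes, posterior blastemas with U0126 over posterior blastemas, with whiskers for the SE implied by the test; colours give the role and filled points an adjusted p under 0.05. The 4 filled points are BMP1, BMP7, TGFBR1 and SMAD6, all left of 0, and the highest value is that of ID2 at 0.86.

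Other genes of the pathway, in 5 lists of 72 symbols of which 59 were tested, held 11 calls with U0126, of which 9 were lower and 2 higher, where 8.12% of all genes passed and 3.99% as lower. Among 23 secreted regulators and latency proteins 3 fell. FSTL1, a follistatin-like glycoprotein, was at 483, 751, 532, 1375 and 481 CPM with U0126, against 2451, 1902, 1785 and 1938 CPM in posterior blastemas. Its log2 fold change was −1.48 ± 0.33 (SE, adjusted p = 0.0201), and all U0126 libraries were lower. LTBP1 and LTBP3, which hold latent TGF-beta in the matrix, had log2 fold changes of −1.17 ± 0.29 (SE, adjusted p = 0.0268) and −0.83 ± 0.23 (SE, adjusted p = 0.0387).

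Of 6 further receptors and co-receptors ACVRL1, a type I receptor of endothelial cells, fell, with a log2 fold change of −0.66 (adjusted p = 0.0209). Of 12 intracellular regulators 4 passed. The SMAD co-repressors TGIF2 (−1.01, adjusted p = 0.0162), TGIF1 (−0.83, adjusted p = 0.0275) and SKI (−0.48, adjusted p = 0.0212) were lower. PPM1A, a phosphatase that acts on SMADs, was higher (0.40, adjusted p = 0.0227). Of 17 target genes, TBX3 averaged 11 CPM with U0126 and 32.9 CPM in posterior blastemas (log2 fold change −1.59, adjusted p = 0.0157), VIM was also lower (−1.08, adjusted p = 0.0242) and GATA3 higher (0.93, adjusted p = 0.0380). The only further ligand tested, MSTN, did not pass.

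Markers of cell types moved in the same comparison. All 9 mesenchyme markers measured had lower means with U0126 and 2 passed, PRRX2 and PDGFRA, and their summed level was 4711 to 12956 CPM with U0126, against 15611 to 24744 CPM in posterior blastemas. All 6 macrophage markers were lower and 3 passed, with sums of 302 to 515 CPM with U0126, against 600.4 to 1106 CPM in posterior blastemas. Of 8 epidermis markers 7 had higher means and 2 passed, with sums of 3318 to 5068 CPM with U0126, against 2330 to 3743 CPM in posterior blastemas. Among 6 cartilage markers 5 had lower means and 1 passed, with sums of 46.1 to 84.3 CPM with U0126, against 113 to 179 CPM in posterior blastemas.

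No marker of the other 4 lists passed. Their sums with U0126 and in posterior blastemas were 567 to 10939 and 1603 to 11621 CPM for 8 skeletal muscle markers, and 31.1 to 136 and 73.9 to 109.6 CPM for 7 endothelium markers. They were 126.9 to 289 and 88.4 to 1335 CPM for 5 Schwann cell markers, and 7.38 to 18 and 7.34 to 30.9 CPM for 5 lymphocyte markers. The part of these markers in the pathway genes' differences was not tested.

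TGFBR1 was the sole member that passed whichever library of these groups was left out. It was alone when posterior replicate 1, posterior replicate 2 or U0126 replicate 1, 2 or 3 was left out (1 call each). Without posterior replicate 3 the 2 calls were TGFBR1 and BMP7, without posterior replicate 4 they were TGFBR1 and SMAD6, and without U0126 replicate 5 the 3 calls were TGFBR1, BMP1 and BMP7. With each library left out, calls over all genes ranged from 127 to 2381, against 1576 with all libraries. The members' counts are to be read beside that range.

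**Figure D3:**
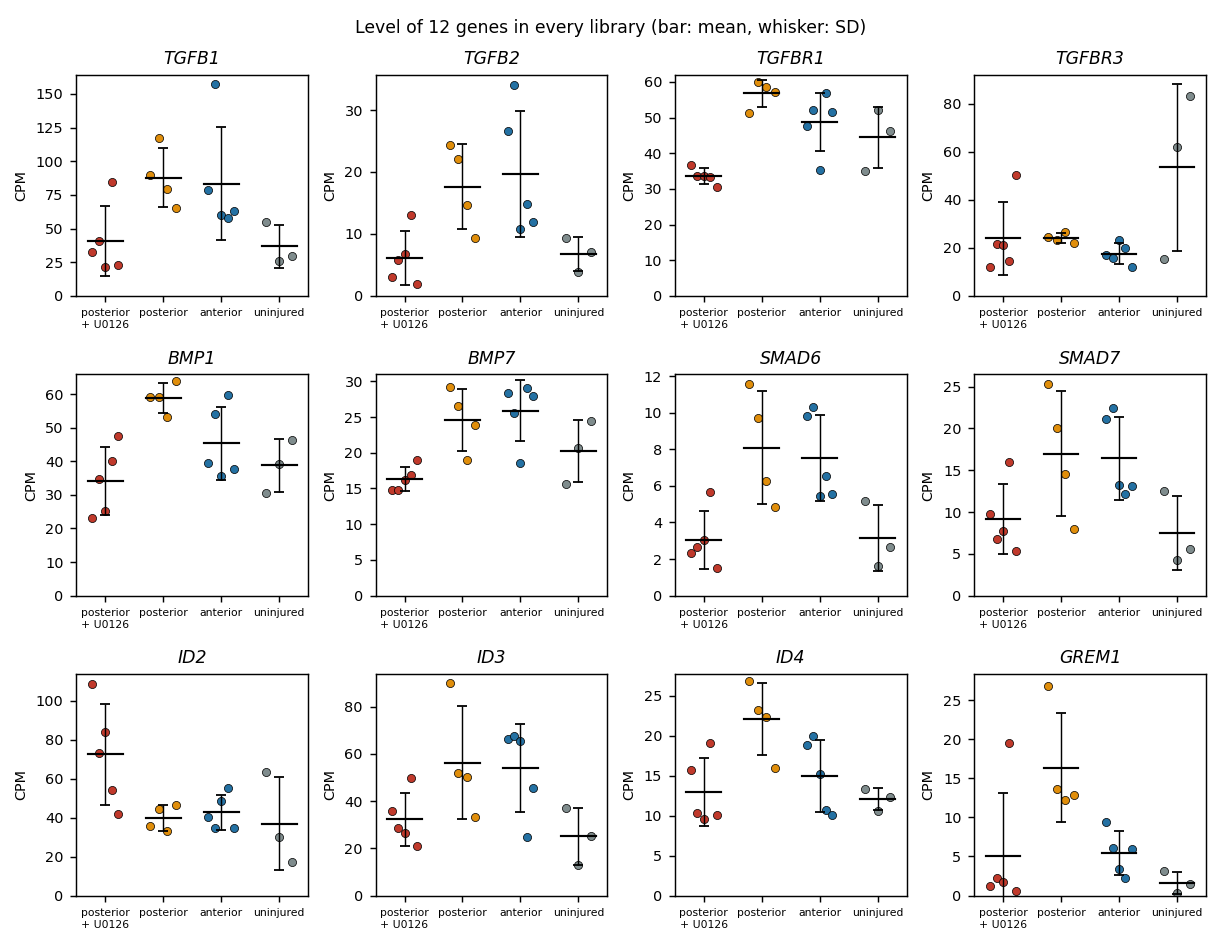
CPM of 12 genes in each library, in 4 groups; points are libraries, bars the mean and whiskers the SD, and the genes were chosen for the plot after their values were seen. In TGFBR1 and BMP7 all U0126 libraries lie under all posterior libraries, in GREM1 and TGFB1 a single U0126 library (replicate 4) lies far above the rest of its group, and in TGFBR3 uninjured replicate 1 lies far below the other uninjured libraries.

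Posterior blastemas were set against anterior blastemas to ask whether the pathway differs between the sides of the limb. No member passed the adjusted threshold, by edgeR's quasi-likelihood test or by DESeq2, which called 0.655% of all genes. In all 0.00516% of genes, a single gene of 19398, passed by edgeR, so the comparison called almost nothing. At an unadjusted p under 0.05 there were 5 members, BMP3, SMAD1, ID4 and CHRD higher in posterior blastemas and ACVR1B lower, where 9.56% of all genes passed. Of 19398 genes, 1078 passed so as higher and 777 as lower. Means were higher in posterior blastemas in 29 of 42 members, with a median log2 fold change of 0.09 against −7.3e-05 over all genes.

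Without overlap were 2 members, GREM1 and BMP3, both higher, where 4.85% of all genes had no overlap and 2.78% were higher without overlap. GREM1, which in mouse limb buds is expressed mainly in posterior mesenchyme, was at 26.8, 13.6, 12.3 and 12.8 CPM in posterior blastemas, against 9.40, 6.14, 3.38, 2.19 and 5.95 CPM in anterior blastemas. Every posterior library was above every anterior library, and posterior replicate 1 was well above the other posterior libraries. The log2 fold change was 1.60 ± 0.86 (SE), adjusted p = 0.588.

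BMP3, a ligand that counteracts bone-forming BMPs in the mouse, was at 3.36, 1.69, 1.57 and 0.959 CPM in posterior blastemas, against 0.0920, 0.199, 0.228, 0.885 and 0.445 CPM in anterior blastemas. The lowest posterior and the highest anterior library nearly met. These values rest on 333 reads in posterior and 83 reads in anterior blastemas. The log2 fold change was 2.36 ± 0.71 (SE), adjusted p = 0.405.

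The other members of smallest p overlapped between the sides. SMAD1 averaged 39.6 CPM in posterior and 30.3 CPM in anterior blastemas, a log2 fold change of 0.39 ± 0.13 (SE, adjusted p = 0.408). ACVR1B, a type I activin receptor, averaged 56.8 CPM in posterior and 75.0 CPM in anterior blastemas (−0.40 ± 0.17, adjusted p = 0.481). ID4 averaged 22.1 ± 4.5 CPM (SD, n = 4) in posterior and 14.9 ± 4.55 CPM (SD, n = 5) in anterior blastemas.

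ID4 had a log2 fold change of 0.56 ± 0.25 (SE, adjusted p = 0.487). CHRD, the BMP-binding chordin, was at 1.2, 2.48, 2.20 and 5.97 CPM in posterior blastemas, against 0.515, 1.56, 1.27, 1.94 and 1.52 CPM in anterior blastemas. The groups overlapped, and posterior replicate 4 was far above the other libraries. The log2 fold change of CHRD was 1.12 ± 0.51 (SE, adjusted p = 0.509), and 0.52 (adjusted p = 0.811) without posterior replicate 4. GDF10, a ligand related to BMP3, differed by 1.43 ± 0.76 (SE, adjusted p = 0.578) and BMP1 by 0.38 ± 0.21 (SE, adjusted p = 0.607). Nearly level between the sides were the ligands BMP7 (−0.07 ± 0.16, SE), TGFB1 (0.08 ± 0.41, SE) and INHBA (0.04 ± 0.83, SE), and the inhibitory SMAD6 (0.10 ± 0.40, SE) and SMAD7 (0.05 ± 0.39, SE), none of which passed. The SEs of TGFB1, INHBA, SMAD6 and SMAD7 were wide beside these values, so a difference in either direction is not excluded.

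SHH and its target PTCH1, chosen after their values were seen, are given as a check of the sides. SHH had 342, 76, 137 and 5 reads in posterior blastemas, against 2, 0, 0, 0 and 0 reads in anterior blastemas. Uninjured libraries held 0, 2 and 39 SHH reads. PTCH1 was at 55.5, 27.4, 24.6 and 5.58 CPM in posterior blastemas, against 3.39, 3.51, 1.5, 4.55 and 2.23 CPM in anterior blastemas. By edgeR's quasi-likelihood test neither passed. The log2 fold changes were 8.18 (adjusted p = 0.323) for SHH and 3.22 (adjusted p = 0.261) for PTCH1. The lack of calls among the members is thus no sign that the sides are alike. Posterior replicate 4 was thus much lower in both than the other posterior libraries, although its GREM1 level was like that of replicates 2 and 3. Of the 59 further pathway genes none passed; the smallest p was that of TBX3, at 32.9 CPM in posterior and 9.88 CPM in anterior blastemas (log2 fold change 1.74, adjusted p = 0.20).

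All 8 epidermis markers had lower means in posterior than in anterior blastemas, summing to 2330 to 3743 CPM in posterior and 3346 to 5094 CPM in anterior blastemas. All 9 mesenchyme markers had higher means, summing to 15611 to 24744 CPM in posterior and 9914 to 16661 CPM in anterior blastemas. The 8 skeletal muscle markers summed to 1603 to 11621 CPM in posterior and 1.75 to 3084 CPM in anterior blastemas. No marker passed the adjusted threshold, and the part of these cell types in the pathway genes' values was not tested.

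Blastemas were set against uninjured tissue to ask which pathway genes differ between them. The posterior blastemas of this comparison are also the controls of the U0126 comparison, and both blastema groups are set against the same uninjured libraries. With all libraries no member passed in posterior blastemas, where 2.1% of all genes passed, nor in anterior blastemas, where 0.206% passed (edgeR's quasi-likelihood test). DESeq2 called 3 members in posterior blastemas, GREM1, SMAD6 and ID4, all higher, where 10.6% of all genes passed, and 2 in anterior blastemas, TGFBR3 and FST, both lower, where 8.96% passed. At an unadjusted p under 0.05 there were 12 members in posterior blastemas, 10 of them higher, where 21.3% of all genes passed, 2072 as higher and 2053 as lower. In anterior blastemas there were 11 members, 6 of them higher, where 21.5% of all genes passed, 1882 as higher and 2281 as lower. Median log2 fold changes over the tested members were 0.32 in posterior and 0.21 in anterior blastemas, against −0.02 over all genes in either comparison. Scaling by total counts moved the median of all genes to 0.14 in posterior and 0.12 in anterior blastemas, and that of the members to 0.48 and 0.33. With that scaling, 16 members were higher and 0 lower at an unadjusted p under 0.05 in posterior blastemas, and 10 were higher and 4 lower in anterior blastemas. All genes leaned the same way with it. Of 19398 genes, 3131 were higher and 1103 lower in posterior blastemas, and 2798 higher and 1406 lower in anterior blastemas.

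Groups did not overlap in 6 members of posterior blastemas against uninjured tissue, BMP1, GDF11, TGFB1, TGFB3, ID4 and GREM1, all higher, where 16.7% of all genes had no overlap and 8.94% were higher without overlap. In anterior blastemas 3 members did not overlap, TGFB1, TGFB2 and SMAD6, all higher, where the share over all genes was 10.7%, and 5.8% as higher. Members without overlap were thus about as frequent as other genes in either comparison.

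TGFB1, a ligand released at wounds, was at 90.1, 117, 79.3 and 65.0 CPM in posterior blastemas and at 78.5, 157, 60.4, 57.5 and 62.9 CPM in anterior blastemas, against 54.9, 25.5 and 29.7 CPM in uninjured tissue. All 9 blastemas were above all uninjured libraries, of which replicate 1 was the highest. The log2 fold changes were 1.26 ± 0.48 (SE, adjusted p = 0.147) in posterior and 1.18 ± 0.47 (SE, adjusted p = 0.170) in anterior blastemas.

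TGFB2 was at 24.4, 22.1, 14.7 and 9.31 CPM in posterior blastemas and at 26.6, 34.1, 10.8, 14.9 and 11.9 CPM in anterior blastemas, against 9.39, 3.91 and 7.01 CPM in uninjured tissue. The anterior libraries were all above the uninjured ones, while posterior replicate 4 lay level with uninjured replicate 1. Its log2 fold change in anterior blastemas was 1.54 ± 0.58 (SE, adjusted p = 0.155).

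SMAD6 was at 11.6, 9.71, 6.24 and 4.84 CPM in posterior and 9.82, 10.3, 5.47, 6.57 and 5.53 CPM in anterior blastemas, against 5.15, 1.63 and 2.67 CPM in uninjured tissue. SMAD7 was at 25.3, 20.1, 14.6 and 8.0 CPM in posterior and 21.2, 22.5, 13.2, 12.2 and 13.2 CPM in anterior blastemas, against 12.5, 4.28 and 5.62 CPM in uninjured tissue. In both genes uninjured replicate 1 reached the blastema levels and the other uninjured libraries lay below every blastema without U0126.

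For SMAD6 the log2 fold changes were 1.36 ± 0.47 (SE, adjusted p = 0.114) in posterior and 1.26 ± 0.46 (SE, adjusted p = 0.140) in anterior blastemas. For SMAD7 they were 1.18 ± 0.46 (SE, adjusted p = 0.151) in posterior and 1.14 ± 0.44 (SE, adjusted p = 0.165) in anterior blastemas. Without uninjured replicate 1 SMAD7 was at 1.78 (adjusted p = 0.0393) in posterior and 1.73 (adjusted p = 0.0267) in anterior blastemas. ID3 averaged 56.3 ± 23.9 CPM (SD, n = 4) in posterior and 54 ± 18.6 CPM (SD, n = 5) in anterior blastemas, against 25.2 ± 12 CPM (SD, n = 3) in uninjured tissue. Its log2 fold changes of 1.16 (adjusted p = 0.133) and 1.10 (adjusted p = 0.153) did not pass.

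TGFBR3, or betaglycan, presents TGF-beta ligands to their receptors. It was at 24.3, 23.3, 26.8 and 22.1 CPM in posterior and 17, 15.8, 23.3, 19.8 and 12 CPM in anterior blastemas, against 15.2, 62.0 and 83.1 CPM in uninjured tissue. Uninjured replicate 1 lay within the anterior range, and the other uninjured libraries were far above every blastema without U0126. The log2 fold changes were −1.15 ± 0.48 (SE, adjusted p = 0.185) in posterior and −1.60 ± 0.46 (SE, adjusted p = 0.0875) in anterior blastemas. In posterior blastemas TGFBR3 was at −0.68 (adjusted p = 0.535) without uninjured replicate 3.

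INHBA showed the same library from the other side, at 9.63, 0.914 and 0.927 CPM in uninjured replicates 1, 2 and 3. It was at 17, 21.2, 9.40 and 8.98 CPM in posterior and 9.24, 30.2, 7.03, 11.6 and 10.9 CPM in anterior blastemas. Uninjured replicate 1 thus lay among the blastemas without U0126 and the other uninjured libraries far below them. With all libraries its log2 fold changes were 1.88 ± 1.01 (SE, adjusted p = 0.299) in posterior and 1.85 ± 0.98 (SE, adjusted p = 0.285) in anterior blastemas.

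Of the antagonists, GREM1 had 3.11, 0.272 and 1.42 CPM in uninjured tissue, below all posterior libraries, whose values are given above. Its log2 fold change was 3.35 ± 1.12 (SE, adjusted p = 0.104) in posterior blastemas and 1.76 ± 1.02 (SE, adjusted p = 0.324) in anterior blastemas. FST was at 1.45, 3.08, 2.49, 6.84 and 2.69 CPM in anterior blastemas, against 3.44, 12 and 15 CPM in uninjured tissue, with a log2 fold change of −1.62 ± 0.55 (SE, adjusted p = 0.121). Uninjured replicate 1 again lay within the anterior range. ID4 was higher in every posterior library than in uninjured tissue (0.87 ± 0.29, SE, adjusted p = 0.102), and BMP1 likewise (0.60 ± 0.24, SE, adjusted p = 0.167). BMP3 in anterior blastemas had a log2 fold change of −2.0 ± 0.75 (SE, adjusted p = 0.152), and −1.32 (adjusted p = 0.514) without uninjured replicate 3.

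Without the 2 libraries that stood apart, 7 members passed in posterior blastemas against uninjured tissue, where 15.7% of all genes passed. Uninjured replicate 1 lay inside the range of the blastemas without U0126 in 34 of 42 tested members. Leaving it out can by itself widen the members' differences, so calls made without it, in either blastema group, are no separate support. INHBA (log2 fold change 3.95, adjusted p = 0.0107), SMAD6 (1.92, adjusted p = 0.0197), SMAD7 (1.79, adjusted p = 0.0251), ID3 (1.57, adjusted p = 0.0416) and GREM1 (4.30, adjusted p = 0.0373) were higher. TGFBR3 (−1.58, adjusted p = 0.00323) and ACVR2A (−0.58, adjusted p = 0.00990) were lower.

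In anterior blastemas 11 members passed without these libraries, where 22.7% of all genes passed, a share near that of the members. INHBA (3.90, adjusted p = 0.00676), TGFB1 (1.60, adjusted p = 0.0455), TGFB2 (1.86, adjusted p = 0.0493), the type II BMP receptor BMPR2 (0.96, adjusted p = 0.0208), SMAD6 (1.81, adjusted p = 0.0154), SMAD7 (1.74, adjusted p = 0.0186) and ID3 (1.5, adjusted p = 0.0344) were higher. TGFBR3 (−2.04, adjusted p = 0.000609), ACVR2A (−0.58, adjusted p = 0.00525), FST (−2.02, adjusted p = 0.0215) and BMP3 (−2.52, adjusted p = 0.0229) were lower. Leaving out uninjured replicate 1 alone gave 5 members in posterior blastemas, where 9.76% of all genes passed, and 9 members in anterior blastemas, where 18.5% passed. By edgeR's quasi-likelihood test GREM1 (adjusted p = 0.0652) and ID3 (0.0574) then did not pass in posterior blastemas. In anterior blastemas TGFB1 (0.0550) and TGFB2 (0.0801) did not. Those calls came only with U0126 replicate 5 left out too, a library in none of these groups. With uninjured replicate 1 gone, 2 uninjured libraries remain, and whether they stand for uninjured tissue better than the third was not tested.

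**Figure D4:**
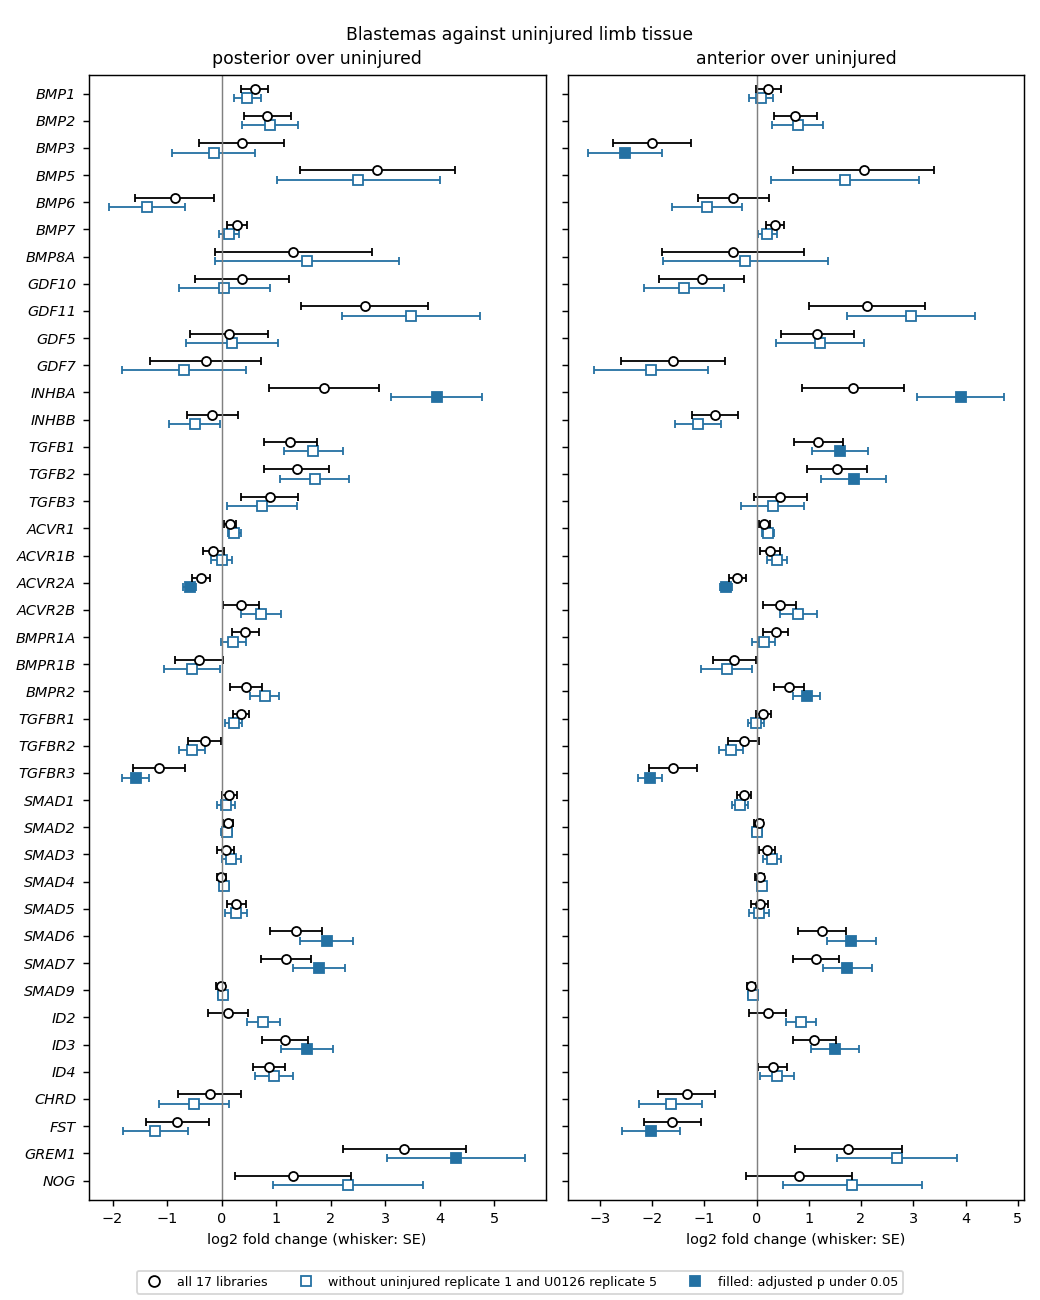
Log2 fold changes of 41 tested genes in posterior (left) and anterior (right) blastemas over uninjured tissue, with SE whiskers, from all 17 libraries (circles) and without the 2 that stood apart (squares); filled symbols have an adjusted p under 0.05. No circle is filled, and filled squares in both panels are INHBA, ACVR2A, TGFBR3, SMAD6, SMAD7 and ID3.

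Of the 59 further pathway genes, 4 rose in posterior blastemas against uninjured tissue with all libraries and none passed in anterior blastemas, where 2.1% and 0.206% of all genes passed. LTBP1 was at 136, 105, 93.6 and 90.7 CPM in posterior blastemas, against 38.2, 26.3 and 30.2 CPM in uninjured tissue, and its log2 fold change was 1.75 ± 0.35 (SE, adjusted p = 0.0272). TBX3 (1.80, adjusted p = 0.0345), TGIF1 (1.09, adjusted p = 0.0381) and TLL1 (1.80, adjusted p = 0.0420), a protease related to BMP1, also rose. In anterior blastemas the smallest p was that of TGIF1 (1.02, adjusted p = 0.0567).

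All 6 macrophage markers had higher means in both blastema groups than in uninjured tissue, summing to 600.4 to 1106 CPM in posterior and 691 to 1172 CPM in anterior blastemas, against 333 to 577 CPM in uninjured tissue. Mesenchyme markers summed to 15611 to 24744 CPM in posterior and 9914 to 16661 CPM in anterior blastemas, against 9979 to 16807 CPM in uninjured tissue, with 9 of 9 and 6 of 9 higher. Epidermis markers were lower in 8 of 8 in posterior blastemas, where 2 passed, and in 7 of 8 in anterior blastemas. Skeletal muscle markers summed to 1603 to 11621 CPM in posterior and 1.75 to 3084 CPM in anterior blastemas, against 855 to 23382 CPM in uninjured tissue, with uninjured replicate 1 the lowest at 855 CPM. The part of these markers in the pathway genes' values was not tested.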

How the data were processed

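RNA of 17 libraries was sequenced, and the authors deposited raw counts of reads per gene without normalization. Per the submitters' processing notes, Trimmomatic 0.39 and STAR 2.7.3a were used. No source used here gives the build or gene models. Reads not assigned to a gene (14.2% to 16.4%) were left out, which are those unmapped, mapped to several places, in no gene, or ambiguous between genes. Counts taken without regard to strand were used, so reads of overlapping or antisense genes cannot be told apart. Libraries of a group differed beyond sampling noise, with a chi-square of 64.6 to 630.1 per degree of freedom.

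From these counts, filterByExpr kept 19398 genes, TMM factors (0.862 to 1.08) scaled the libraries, and edgeR 4.0.16 in R 4.3.3 fitted all 17 libraries in 1 robust quasi-likelihood model. Benjamini-Hochberg adjustment ran over all genes, with a threshold of 0.05. Each SE was obtained as |log2 fold change| over the square root of F, so it carries the same information as p. CPM use the TMM-scaled totals. The fit was tested on simulated data, in which all libraries shared the same mean profile and spread, apart from the genes made to differ. No simulated library stood apart, so the test does not cover libraries like those that stood apart here. Groups came from the labels alone. The members, the pathway lists (72 symbols) and the lists of skeletal muscle, mesenchyme, epidermis, macrophage, endothelium, Schwann cell, cartilage and lymphocyte markers were chosen with earlier results of these data known. Members named with statistics are those past the threshold and the 8 of smallest p in each comparison; others named for their overlap, role or libraries were chosen after their values were seen.

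Other settings tried were RLE scaling, scaling by total counts, dropping the filter, a stricter filter, a strand-specific count column, a model of the compared groups alone, that model with the replicate number as a block, DESeq2 1.42.0, and omitting single libraries. Omitting both libraries that stood apart was chosen after seeing the data. 1 tested member is counted in the totals but is not reported here. Figures were drawn with matplotlib 3.10.9 in Python 3.11.15.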

Additional observations from a re-analysis of the deposited data

Results flagged for a closer look

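For 18 members named for any comparison, groups with at least 4 libraries were searched for a library far from the rest of its group. Of 54 such sets, 6 had one. Chance gives about 1 in 20 sets if values are normally distributed. That was not checked for CPM, and the sets share libraries, so an excess is not shown. GREM1 had such a library in posterior blastemas with U0126 and in posterior blastemas. U0126 replicate 4 had 19.5 CPM, where the other U0126 libraries had 0.566 to 2.23 CPM, and posterior replicate 1 had 26.8 CPM, where the other posterior libraries had 12.3 to 13.6 CPM. TGFB1 was at 157 CPM in anterior replicate 2, against 57.5 to 78.5 CPM in the other anterior libraries. TGFBR3 was at 50.2 CPM in U0126 replicate 5, against 12 to 21.5 CPM in the other U0126 libraries. ACVR1B was at 64.7 CPM in posterior replicate 4, against 53.1 to 54.9 CPM in the other posterior libraries. SMAD1 was at 39.8 CPM in U0126 replicate 3, against 27.7 to 31.1 CPM in the other U0126 libraries.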

How the results depend on the processing

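Of 552 values of named members under alternatives, 489 kept their direction and side of the threshold. A further 28 kept the direction but no longer passed, 35 newly passed and 0 changed sign. Only the 4 members that passed with U0126 could lose a call, and all 28 losses were theirs. Of 18 alternatives each, TGFBR1 no longer passed in 1, BMP7 in 7, BMP1 in 9 and SMAD6 in 11. With U0126 against posterior blastemas, the 4 members that passed became 8 with DESeq2, 2 in a fit of only the 2 groups, 0 with the replicate block added to that fit, 7 without both libraries that stood apart and 1 to 9 when each library was left out; in the block fit TGFBR1 had an adjusted p of 0.0769. Posterior against uninjured, none passed, against 3 with DESeq2, 7 without both libraries and 0 to 5 with each left out. Anterior against uninjured, none passed, against 2 with DESeq2, 11 without both and 0 to 9 with each left out. Posterior against anterior stayed at 0 under every alternative run. The cause of these changes was not tested.

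Over all genes, U0126 against posterior had 1576 calls, which became 2968 with DESeq2, 983 with 2 groups, 25 with the block, 2575 without both libraries and 127 to 2381 with each left out. Posterior against anterior, 1 call became 127 with DESeq2, 4 with 2 groups, 2 with the block, 0 with total counts or no filter, and 0 with each library left out. Posterior against uninjured, 408 became 2064 with DESeq2, 265 with no filter, 0 with 2 groups and with the block, 3108 without both and 0 to 1935 with each left out. Anterior against uninjured, 40 became 1739 with DESeq2, 86 with RLE, 74 with total counts, 142 with the stricter filter, 8 with 2 groups, 60 with the block added to that fit, 4492 without both and 0 to 3675 with each left out. Total-count scaling turned 168 higher and 240 lower into 173 and 100 in posterior, and 13 higher and 27 lower into 44 and 30 in anterior blastemas against uninjured tissue.

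Libraries of the same number deviated together only in part (correlations −0.211 to 0.147 for U0126 and posterior, 0.0076 to 0.221 for posterior and anterior, 0.0370 to 0.238 for posterior and uninjured, −0.246 to 0.288 for anterior and uninjured) and were not used as pairs. Those of different number ranged, in the same order, −0.217 to 0.217, −0.259 to 0.263, −0.196 to 0.099 and −0.476 to 0.326. Whether the numbers mark pairs is not settled by these values. The library names of anterior and uninjured replicates 1 to 3 begin alike number by number, and whether these are the same animals is not stated; with the block, 0 members passed there. Depth limits the low members, such as NOG with 148 reads in all and GDF7 with 111.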

Other observations

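Posterior replicates 1 and 4 bounded their group in many members: replicate 1 was the highest posterior library in 21 of 42 tested members, and replicate 4 the lowest in 21. Posterior replicate 4 also had the fewest SHH reads of its group, 5 against 76 to 342 in the others. Among anterior libraries, replicate 2 was the highest in 21 of 42 members. GDF6, with too few reads for a test, had 1 read over the 5 U0126 libraries, 22 over the 4 posterior, 34 over the 5 anterior and 2 over the 3 uninjured libraries.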
